A study of Arabidopsis thaliana with 6 samples.

Results

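The comparison set transcripts of transposable elements (TEs) in a ddm1 rdr6 library of Arabidopsis thaliana directly against those in a ddm1 polV library. Its members were all 252 transcript models that the authors listed for these libraries, 107 from ddm1 rdr6 and 145 from ddm1 polV, of 829 models in the whole series. Models that shared at least 1 bp of exon on the same strand were joined into loci, which gave 145 loci of the 344 in the series, paired with 174 TE identifiers. Both libraries were of ecotype Columbia, carried the ddm1 mutation and were made from flower buds that had not yet opened (inflorescence stages 1 to 12), on plants grown at 22 °C with 16 h of light. In one, RDR6 was also mutated, and in the other Pol V. Both were made from 50 ng of poly(A) RNA with 14 PCR cycles and sequenced on the MinION, an Oxford Nanopore long-read sequencer, in round 1. The labels do not name alleles or say how many plants were pooled.

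The other 4 libraries served only for description. They were wild type (wt), ddm1 and replicate A of ddm1 rdr6 polV, all of round 1, and replicate B of ddm1 rdr6 polV, sequenced alone in round 2 after 13 PCR cycles and, per the labels, at higher depth. Each genotype compared had 1 library, so every test below compares libraries and not genotypes, and a difference of genotype cannot be told apart from one between libraries. The files give no library totals. They hold TE-associated models only, so neither the mutated genes nor the tissue could be checked: no model overlapped DDM1, RDR6 or NRPE1, the gene of the largest Pol V subunit, and 0 of 7 flower bud genes had one. In bulk tissue, fewer cells of a type and less RNA per cell cannot be told apart.

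DDM1 is a chromatin remodeler that keeps TEs methylated and silent, and many TEs are transcribed when it is lost. RDR6, an RNA-dependent RNA polymerase, copies transcripts into double-stranded RNA, from which small interfering RNAs are cut. It acts after transcription. Pol V is an RNA polymerase whose chromatin-bound transcripts recruit small-RNA complexes, which direct DNA methylation. RDR6 and Pol V thus act at different steps of TE silencing, on the transcript and on the chromatin.

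A few sequences carry the differences in transcript structure described below. All were read from TAIR10.1 (RefSeq) at the deposited coordinates, 5′ to 3′ on the strand of the transcript. At AT1TE45375, the ddm1 polV transcripts removed a first intron that the ddm1 rdr6 transcripts kept. Capitals mark the GT with which it begins (chr1:13841462-13841501, minus strand) and the AG ends of its 2 forms, which lie 5 nt apart (chr1:13841001-13841050, minus strand).
AT1TE45375 donor: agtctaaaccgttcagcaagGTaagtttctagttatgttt
AT1TE45375 acceptors: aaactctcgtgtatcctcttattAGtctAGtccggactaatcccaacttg
At AT3TE60425, an exon of 89 nt was held by ddm1 polV transcripts and by no model of ddm1 rdr6. The exon is in capitals, with 20 nt on either side (chr3:14791123-14791251, minus strand).
AT3TE60425 exon: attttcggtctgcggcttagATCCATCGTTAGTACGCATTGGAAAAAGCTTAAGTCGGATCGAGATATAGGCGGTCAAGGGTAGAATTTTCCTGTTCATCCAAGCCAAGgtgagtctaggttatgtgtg
At the plus-strand locus of AT2TE24735, the libraries used splice donors 14 nt apart. The first GT in capitals was that of ddm1 polV and the second that of ddm1 rdr6 (chr2:6074620-6074679).
AT2TE24735 donors: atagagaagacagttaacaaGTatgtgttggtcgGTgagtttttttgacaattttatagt
At AT2TE41175, the end of an intron differed by 5 nt. The TG in capitals ended the intron of the ddm1 polV model and the AG that of ddm1 rdr6 (chr2:9653097-9653151, plus strand).
AT2TE41175 acceptors: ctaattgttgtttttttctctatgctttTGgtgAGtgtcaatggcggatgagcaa
Of the Sadhu elements described below, SADHU3-1 and SADHU3-2 differed most in reads. The first 150 nt of their most-read ddm1 rdr6 models are shown (chr3:15813904-15814053 and chr3:14750172-14750321, both minus strand), with their longest shared run, 25 nt, in capitals. The SADHU3-1 model of ddm1 polV began 64 nt downstream of the first base shown, past the capitals.
SADHU3-1 transcript start: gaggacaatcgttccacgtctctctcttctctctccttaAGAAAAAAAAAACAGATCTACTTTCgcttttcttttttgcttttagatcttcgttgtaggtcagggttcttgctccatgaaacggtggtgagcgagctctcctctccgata
SADHU3-2 transcript start: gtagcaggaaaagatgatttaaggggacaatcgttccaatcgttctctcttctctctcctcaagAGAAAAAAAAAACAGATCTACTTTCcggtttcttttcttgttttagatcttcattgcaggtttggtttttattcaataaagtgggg

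Most TE loci of the ddm1 rdr6 library were found again in ddm1 polV, while ddm1 polV held many more of its own. Of the 145 loci, 74 had models in both libraries, 18 were specific to the ddm1 rdr6 list and 53 to the ddm1 polV list. Thus 80.4% of the 92 ddm1 rdr6 loci (exact 95% interval 70.9 to 88.0) and 58.3% of the 127 ddm1 polV loci (49.2 to 67.0) were shared. The ddm1 polV library had 1.36 times the models of ddm1 rdr6 (95% interval 1.05 to 1.76, p = 0.0196, exact conditional binomial test, two-sided) and 1.38 times the loci (1.05 to 1.83, p = 0.0214, same exact test). The test treats the counts as independent, although the 74 shared loci and their models were counted on both sides. Its p-values and intervals do not allow for this pairing. Cluster reads, the number of reads that pinfish grouped into a model, summed to 3128 in ddm1 rdr6 and 4303 in ddm1 polV, a ratio of 1.38. Model number and summed reads therefore moved together, and the part of sequencing depth in either was not tested. With models of 20 or more reads only, the ratio of models was 1.31 and did not pass (p = 0.188, exact conditional binomial test), 32 loci were shared, 14 were in ddm1 rdr6 only and 25 in ddm1 polV only. Of the 18 and 53 loci above, only 4 and 11 had 20 or more reads. The 14 and 25 thus include loci with a model of fewer than 20 reads in the other library. Multi-exon models made up 56.1% in ddm1 rdr6 (60 of 107) and 53.1% in ddm1 polV (77 of 145), a difference of -2.97 points that did not pass (p = 0.702, Fisher's exact test, two-sided) and that turned to 7.27 points with models of 20 or more reads (p = 0.454, same exact test).

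Loci found in 1 library lay close to the lowest number of reads at which a model was listed, which was 10. The median was 10.5 reads at the 18 loci of ddm1 rdr6 only and 13 at the 53 loci of ddm1 polV only, against 23 and 28 reads in the same libraries at the shared loci. Of the 18, 10 had 10 or 11 reads, as did 23 of the 53. The loci of 1 library held 8.79% of the ddm1 rdr6 reads (275 of 3128) and 20.3% of the ddm1 polV reads (873 of 4303). The lack of a model means that no TE-associated cluster of 10 or more reads was listed there. The minimum holds for each cluster and not for the locus, and transcripts may still have been made.

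The share found in the other library rose with reads, though not evenly. Among ddm1 rdr6 loci of 10 to 14 reads, 17 of 31 had a model in ddm1 polV, as had 23 of 23 with 15 to 24 reads, 19 of 23 with 25 to 49 and 15 of 15 with 50 or more. Among ddm1 polV loci, 18 of 53 with 10 to 14 reads had a model in ddm1 rdr6, as had 13 of 26 with 15 to 24, 29 of 32 with 25 to 49 and 14 of 16 with 50 or more. The ddm1 rdr6 loci missed at 25 reads or more were 4, and those of ddm1 polV were 5.

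**Figure D1:**
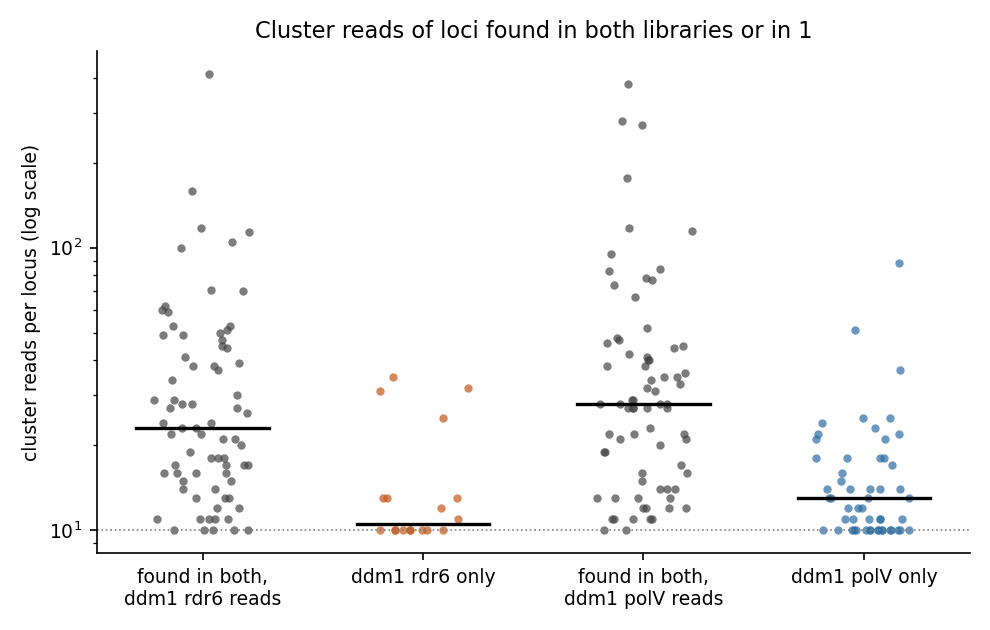
Cluster reads per locus on a log axis, for the 74 loci found in both libraries (grey, by library), the 18 found in ddm1 rdr6 only (orange) and the 53 found in ddm1 polV only (blue). Each point is a locus, each bar a median (23, 10.5, 28 and 13 reads from left to right) and the dotted line marks the minimum of 10 reads.

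In ddm1 rdr6 only, AT2TE15880 (chr2:3637320-3639477, minus strand, outside annotated genes) had the most reads, 35 on an unspliced transcript of 2158 nt, and replicate B had 22. SADHU3-2 (AT3TE60310, AT3G42658, chr3:14749396-14750321, minus strand, a pseudogene exon) followed with 32 reads, and replicate B had 44. Sadhu elements are non-autonomous retroposons that carry no protein-coding gene of their own. An AT5TE39315 locus (chr5:10817121-10818600, plus strand, in the pseudogene AT5G28785) had 31 reads in 2 models. That locus was also in ddm1 with 11 reads, replicate A with 37 and replicate B with 311, so of the 5 mutant libraries it was missing from ddm1 polV alone. The same TE had another plus-strand locus downstream (chr5:10819806-10820034), with 10 reads in ddm1 polV and no model in ddm1 rdr6. SADHU5-1 (AT4TE03410, AT4G01525, chr4:660833-661723) had 25 reads, and also 11 in wt and 26 in replicate B. These were the 4 loci of ddm1 rdr6 only with 20 or more reads. The next 4, AT2TE13060, AT2TE48990, AT3TE50670 and AT5TE43915, had 12 or 13 reads each and 10 to 70 in replicate B. AT2TE48990 (AT2G26630) was the only locus of either library with a match to a PIF protein, a transposase of PIF/Harbinger DNA transposons.

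In ddm1 polV only, AT4TE19905 (chr4:4757224-4757946, plus strand, in the pseudogene AT4G07936) had 88 reads on 1 unspliced model of 723 nt. It was also in ddm1 with 19 reads and in replicate B with 20, and it had no model in replicate A. AT1TE47605 (chr1:14459820-14460402, plus strand, outside annotated genes) had 51 reads and a further 20 in ddm1, with no model in either replicate of ddm1 rdr6 polV. These loci were the only 2 of the 53 with a model in ddm1. AT2TE25540 (chr2:6263366-6264318, minus strand) had 37 reads on a model of 4 exons, and was also in replicate B with 169 reads and replicate A with 16. The genome holds 29 other copies of its longest exon at 95% identity or more, so the placement of its reads is uncertain. AT2TE12555 and AT2TE16580 had 25 reads each, and AT2TE16580 (chr2:3877636-3878763, in the pseudogene AT2G10190) had no model in any other library. AT1TE39375, AT4TE09845 and AT4TE17500 had 22 to 24 reads, and 21 to 64 in replicate B.

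The other 4 libraries were searched for the same loci, and the differences between categories were not tested. A ddm1 model was present at 38 of the 74 shared loci (51.4%, exact 95% interval 39.4 to 63.1), at 4 of the 18 of ddm1 rdr6 only (22.2%, 6.41 to 47.6) and at 2 of the 53 of ddm1 polV only (3.77%, 0.460 to 13.0). Replicate A had models at 53, 4 and 11 of them (71.6%, 22.2% and 20.8%). Replicate B, the deepest library, had models at all 74 shared loci, at 15 of the 18 and at 46 of the 53 (83.3% and 86.8%). In wt, 4 shared loci, 1 of ddm1 rdr6 only and 0 of the 53 of ddm1 polV only had a model, and the exact upper limit on the last share was 6.72%. These shares differ in reads as well as in category, and the part of read number was not tested.

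**Figure D2:**
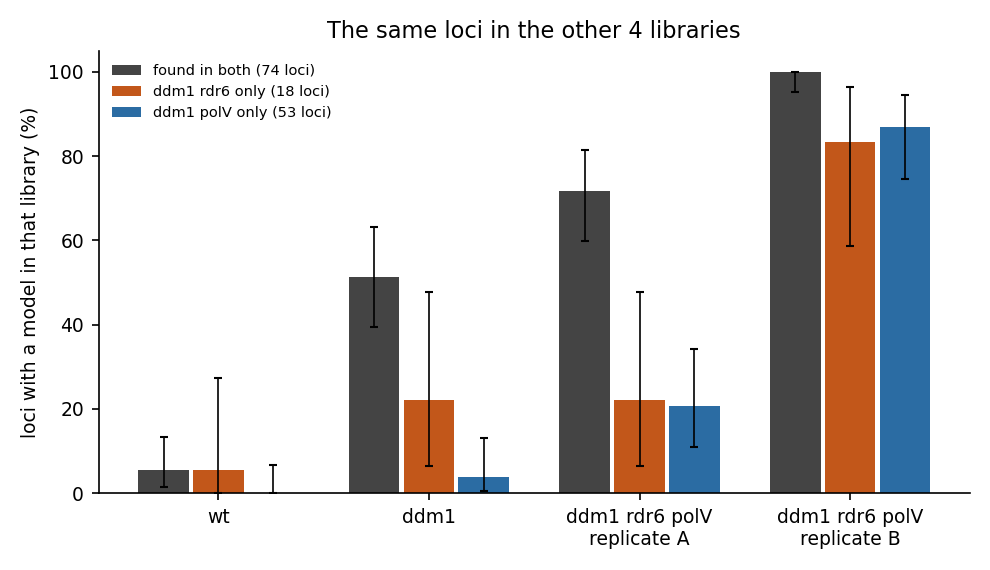
Share of loci with a model in wt, ddm1 and both replicates of ddm1 rdr6 polV, for loci found in both libraries compared (grey), in ddm1 rdr6 only (orange) and in ddm1 polV only (blue). Bars are shares of loci with exact 95% intervals, and all 3 kinds of locus were mostly present in replicate B (83.3% to 100%).

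Most loci of every category were pericentromeric. Bins were called pericentromeric by a low share of bases in protein-coding genes, and distance to a centromere was not used. They held 79.7% of the shared loci (59 of 74), 72.2% of the loci of ddm1 rdr6 only (13 of 18) and 77.4% of those of ddm1 polV only (41 of 53), and the exact intervals of these shares overlapped. Exons of annotated pseudogenes on the same strand overlapped 39 of 74, 14 of 18 and 31 of 53 loci. Spliced transcripts occurred at 44, 9 and 26 loci. Most-read models had median lengths of 687.5, 921.5 and 748 nt, and median longest open reading frames of 240, 196.5 and 288 nt. Their GC content had medians of 40.5%, 40.4% and 41.3%. A near copy of their longest exon, at 95% identity or more elsewhere in the genome, existed for 29, 2 and 19 loci. Reads of such loci may have been placed at a copy.

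At the shared loci, reads in the libraries followed each other with a scatter of about 2-fold. The 74 loci held 2853 reads in ddm1 rdr6 and 3430 in ddm1 polV, and 47 had more reads in ddm1 polV, 24 had more in ddm1 rdr6 and 3 were equal. The median log2 ratio of ddm1 polV to ddm1 rdr6 was 0.32, or 1.25-fold, with an SD over loci of 1.01. Ratios below are centred on this median. Past 2-fold from it lay 16 of the 74 loci (21.6%), 5 higher in ddm1 polV (6.76%) and 11 lower (14.9%), and 6 lay past 4-fold, 2 higher and 4 lower. With the most-read model of each locus in place of all models, 3 loci were higher and 12 lower, and without centring 11 were higher and 8 lower, so the excess of lower over higher loci depended on the centring. These percentages are themselves the background, since all shared loci were compared. The same measure between replicates A and B of ddm1 rdr6 polV, which differed in round and depth, put 25% of 80 shared loci past 2-fold, with an SD of 1.39. The loci nearest the 2-fold limit were AT1TE65060, just past it on the lower side (centred log2 ratio -1.15), and AT4TE50435, just short of it (-0.98). On the higher side, AT4TE15820 and AT5TE44730 (1.16 each) were just past it and AT2TE11985 (0.95) was just short.

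**Figure D3:**
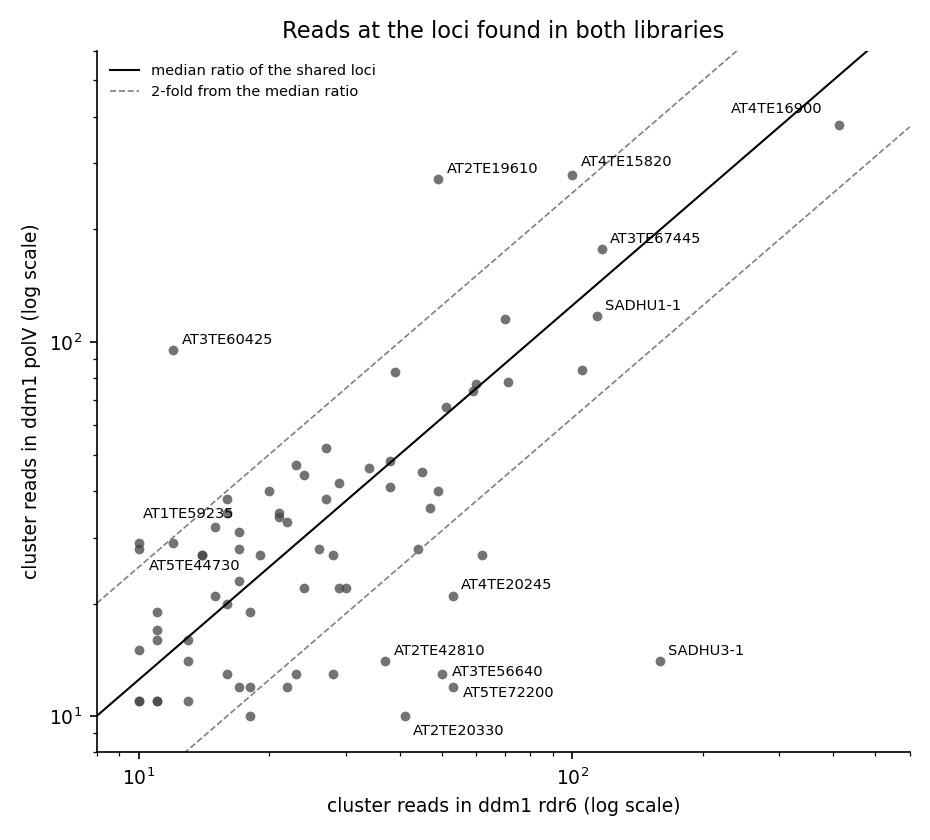
Cluster reads in ddm1 rdr6 (x axis) and ddm1 polV (y axis) at the 74 loci found in both libraries, both on log axes. The solid line is the median ratio of 1.25 and the dashed lines lie 2-fold from it, with 5 loci above and 11 below.

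Higher in ddm1 polV were AT3TE60425 and AT2TE19610, which resembled each other in sequence and formed a group of their own. AT3TE60425 (chr3:14789045-14791413, minus strand, antisense to the lncRNA gene AT3G06465) had 12 reads in ddm1 rdr6 and 95 in ddm1 polV, a centred log2 ratio of 2.66 (exact 95% interval 1.79 to 3.66, counting error only). It had no model in ddm1 or replicate A, and 94 reads in replicate B. AT2TE19610 (chr2:4727560-4729132, plus strand) had 49 reads in ddm1 rdr6 and 272 in ddm1 polV, a centred log2 ratio of 2.15 (1.71 to 2.62). Replicate A had 137 reads there, replicate B 830 and ddm1 26. The minus-strand locus of AT4TE15820 (chr4:3501702-3506698, in the pseudogene AT4G06566) had 100 and 280 reads, a centred log2 ratio of 1.16 (0.83 to 1.51). AT1TE59235 (chr1:17844221-17844992), in an exon of the protein-coding gene AT1G48285, had 10 and 29 reads (1.21, 0.13 to 2.41), and AT5TE44730 had 10 and 28 (1.16, 0.08 to 2.37). AT2TE11985 had 12 and 29 reads (0.95, -0.07 to 2.05), so that its interval reached the median.

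Lower in ddm1 polV, SADHU3-1 stood furthest out. SADHU3-1 (AT3TE63935, AT3G44042, chr3:15813075-15814053, minus strand) had 159 reads in ddm1 rdr6 and 14 in ddm1 polV, a centred log2 ratio of -3.83 (exact 95% interval -4.73 to -3.04). It had 79 reads in ddm1, 85 in replicate A and 26 in replicate B, so ddm1 polV held the lowest raw number of the 5 mutant libraries. Summed reads over all models were 4303 in ddm1 polV and 17106 in replicate B, so these raw numbers do not rank the libraries. AT5TE72200 (chr5:20048358-20049546, minus strand), which overlapped AT5G49440, a protein-coding gene, on the opposite strand of an exon, had 53 and 12 reads (-2.47, -3.51 to -1.54). It was present in every library of the series, with 36 reads in wt, 35 in ddm1, 29 in replicate A and 209 in replicate B. AT2TE20330 (chr2:4956185-4958226, plus strand) had 41 and 10 reads (-2.36, -3.52 to -1.34), and AT3TE56640 (chr3:13806710-13808824, plus strand) had 50 and 13 (-2.27, -3.27 to -1.37). Both were unspliced, ran over about 2 kb outside annotated genes and had no model in ddm1. Replicate A had 59 reads at AT2TE20330 and 21 at AT3TE56640, and replicate B had 356 and 99. AT2TE42810 (37 and 14 reads, -1.73) and AT4TE20245 (53 and 21 reads, -1.66) completed the 6 lowest.

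Of the 5 shared loci with the most reads, AT2TE19610 and AT4TE15820 are described above and the other 3 lay within 2-fold of the median ratio. AT4TE16900 (chr4:3839420-3841614, minus strand, outside annotated genes) had 413 reads in ddm1 rdr6 and 379 in ddm1 polV, a centred log2 ratio of -0.45 (exact 95% interval -0.65 to -0.24). Its transcript has 22 other copies in the genome at 95% identity or more, so the placement of these reads is uncertain. AT3TE67445 (in the pseudogene AT3G45360) had 117 and 177 reads (0.27, -0.07 to 0.62), and SADHU1-1 (AT2TE16940) had 114 and 117 (-0.29, -0.67 to 0.10).

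Sadhu elements, taken as a group after their values were seen, differed between the libraries one by one. Of 16 Sadhu pseudogenes in the annotation, 6 had a model in either library. SADHU1-1 had nearly equal reads, SADHU3-1 had fewer in ddm1 polV, and SADHU3-2, SADHU5-1 and SADHU7-1 (AT3TE18450, 10 reads) had a model in ddm1 rdr6 only, as had 12.4% of all loci (18 of 145). SADHU8-1 (AT1TE62360) went the other way, with 18 reads in ddm1 polV and no model in ddm1 rdr6. The closest matches of SADHU3-1 and SADHU3-2 elsewhere in the genome had 80.1% and 80.2% identity.

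The sequence groups that stand in for TE families gave both directions. Loci were joined where their models aligned at 80% identity or more, which gave 18 groups with 64 loci and left 81 alone. The group of AT1TE46665 had 9 loci, all unspliced and pericentromeric. Of these, 6 were shared and 3 were in ddm1 polV only, as were 36.6% of all loci (53 of 145). The group held 126 reads in ddm1 rdr6, 336 in ddm1 polV and 158 in ddm1. At the 6 shared loci alone, the reads were 126 in ddm1 rdr6 and 246 in ddm1 polV. Its 6 shared loci had a median centred log2 ratio of 0.74 (range -1.17 to 1.16), against 0 by construction over all shared loci. The group of AT1TE54480 had 3 shared loci, each past 2-fold lower in ddm1 polV, against 14.9% of all shared loci (11 of 74). They held 131 reads in ddm1 rdr6 and 50 in ddm1 polV, with a median centred log2 ratio of -1.52. The other locus of this group, AT4TE19910, had a model in ddm1 polV only, with 10 reads. The group of AT4TE16900 (lead locus AT2TE16800) had 518 and 510 reads at 4 shared loci, none past 2-fold, against 16 of all 74. These groups were not tested.

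Loci with a match to a TE protein were few and mostly near the read minimum. Of the 145 loci, 25 matched one of 149 reference proteins named for a TE. CACTA-like loci, DNA transposons named for the ends of the element, numbered 10, of which 4 were shared and 6 were in ddm1 polV only, where 36.6% of all loci compared lay (53 of 145). Their reads summed to 72 in ddm1 rdr6 and 133 in ddm1 polV, and the 6 of ddm1 polV only had 10 or 11 reads each. MuDR-like loci, relatives of the maize Mutator transposon, numbered 8, of which 3 were shared and 5 were in ddm1 polV only, against the same 36.6% of all loci. The 3 shared MuDR-like loci, AT1TE27295, AT4TE25050 and AT4TE67560, had 164 reads in ddm1 rdr6 and 238 in ddm1 polV, with centred log2 ratios from 0.04 to 0.39. Among the 5, AT2TE43165 had 21 reads and the other 4, which formed the group of AT1TE44125, had 10 to 13 each. Copia-like loci, long terminal repeat retrotransposons, numbered 3, with 72 reads in ddm1 rdr6 and 40 in ddm1 polV, and AT2TE12510 was in ddm1 rdr6 only with 10 reads. The hAT-like AT1TE52925 had 27 and 38 reads.

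By transcript structure, in a split chosen after the values were seen, the 44 spliced shared loci had a median centred log2 ratio of 0.02, with 4 past 2-fold higher and 3 lower. A locus counted as spliced if any model of either library had more than 1 exon. The 44 thus include AT4TE16900 and AT1TE52590, each spliced in 1 library only, and AT1TE52590 was among the 3 lower (-1.20). The 30 unspliced shared loci had a median of -0.20, with 1 higher and 8 lower, against 5 and 11 of all 74. Among the 30, 9 had a most-read model over 1000 nt, and their median was -1.43, with 0 higher and 5 lower. The 21 with one of up to 1000 nt had a median of 0.01, with 1 higher and 3 lower. The 8 lower unspliced loci included all 3 shared loci of the AT1TE54480 group, so they are not independent of each other. Differences by splicing or by length were not tested.

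Splicing was mostly the same in both libraries. At the shared loci, 92 distinct introns were found in both, 3 in ddm1 rdr6 only and 11 in ddm1 polV only, so that 86.8% of 106 were shared (exact 95% interval 78.8 to 92.6). Of the 11, 5 were at AT1TE52590, where the ddm1 rdr6 transcript began downstream of them and 0 of its reads covered them. With models of 20 or more reads, 36 introns were in both, 1 in ddm1 rdr6 only and 3 in ddm1 polV only. Between replicates A and B the share was 57.2% (83 of 145). Of the 44 spliced shared loci, 38 had the same introns in both libraries and 6 differed. Of the 60 multi-exon models of ddm1 rdr6, 45 had the same chain of introns in a model of ddm1 polV, and the same chains made up 45 of the 77 multi-exon models of ddm1 polV.

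The largest difference in splicing by reads was at AT1TE45375 (chr1:13839902-13841658, minus strand, in the pseudogene AT1G36630). An intron of 456 nt (27 reads, ending at the first AG in capitals above) or 461 nt (13 reads, ending at the second) was removed in 40 of 40 cluster reads of ddm1 polV (exact 95% interval 91.2% to 100%) and in 0 of 49 of ddm1 rdr6 (0% to 7.25%). In the other libraries it was removed in 0 of 12 reads of ddm1, 40 of 40 of replicate A and 208 of 465 of replicate B (44.7%). Thus ddm1 rdr6 and ddm1 kept the intron, ddm1 polV and replicate A removed it, and replicate B held both forms. Each model is a consensus of its cluster, and a form with fewer than 10 reads would not be listed. A downstream intron was removed in both libraries.

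AT3TE60425 held its exon of 89 nt in 55 of 95 reads of ddm1 polV (57.9%, exact 95% interval 47.3 to 68.0) and in 0 of 12 of ddm1 rdr6 (0% to 26.5%). Replicate B held it in 68 of 94 reads (72.3%). The 40 other reads of ddm1 polV had the same introns as the model of ddm1 rdr6. At the plus-strand locus of AT2TE24735 (chr2:6074168-6075483, in the pseudogene AT2G14330), the downstream donor, giving an intron of 76 nt, was used in 11 of 11 reads of ddm1 rdr6 (71.5% to 100%). The upstream donor, giving 90 nt, was used in 16 of 16 of ddm1 polV. Replicate B used the downstream donor in 91 of 108 reads and the upstream one in 17. AT2TE41175 (chr2:9652494-9654979, in an intron of the pseudogene AT2G22710) ended an intron of 396 nt at an AG in all 24 reads of ddm1 rdr6. The same end was used in all 15 reads of ddm1, all 26 of replicate A and all 112 of replicate B. In ddm1 polV, all 44 reads lay in a model with an intron of 391 nt that ended in TG. The part of alignment in this 5 nt shift was not tested. At these loci too, each model is a consensus of its cluster, and a form below the read minimum would not be listed. The intervals treat cluster reads as independent and do not bound the use of unlisted forms.

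**Figure D4:**
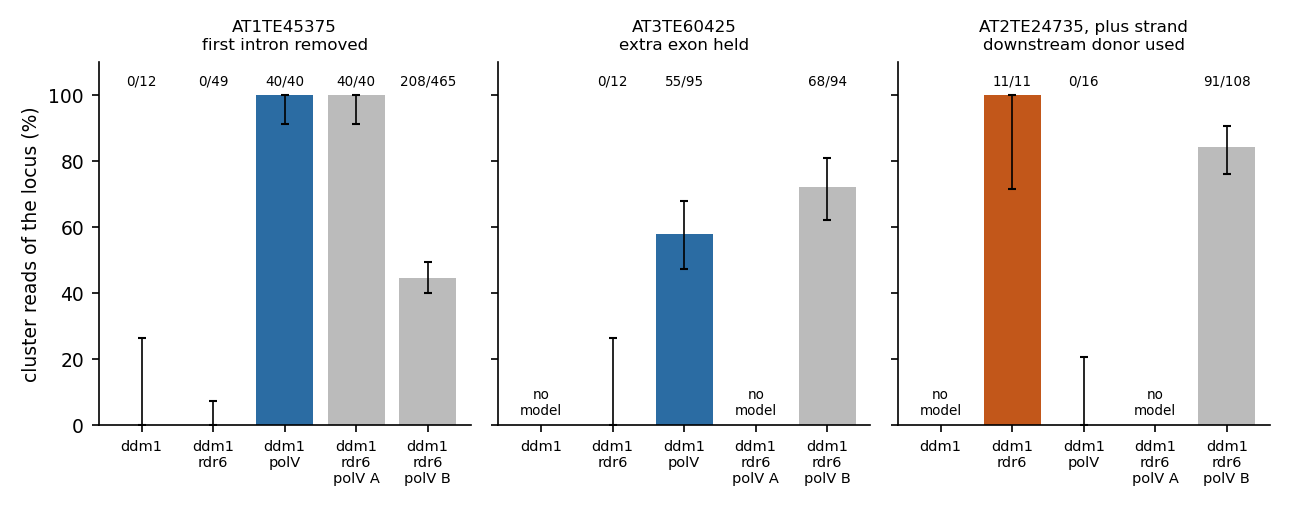
Share of each locus's cluster reads that removed the first intron of AT1TE45375, held the exon of AT3TE60425 or used the downstream donor of AT2TE24735, in ddm1 and the 4 libraries of its combinations with rdr6 and polV. Bars are percent of reads with exact 95% intervals, and counts stand above them. The intervals do not cover forms below the read minimum, which are not listed. The ddm1 rdr6 and ddm1 polV libraries sit at opposite ends for AT1TE45375 (0 of 49 and 40 of 40) and AT2TE24735 (11 of 11 and 0 of 16).

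The other 2 loci were spliced in 1 library only. AT4TE16900 had a model of 14 reads in ddm1 rdr6 with a gap of 96 nt whose ends were AA and AG, not a usual splice site pair. Among cluster reads of the locus, 14 of 413 held the gap in ddm1 rdr6, none of the 379 in ddm1 polV, and 10 of 565 in replicate B. Most transcripts ended before this stretch, and of the reads that covered it, all 14 of ddm1 rdr6 and all 10 of replicate B held the gap, while all 16 of ddm1 polV ran through it unspliced. AT1TE52590 (chr1:15951216-15954256, minus strand, in the pseudogene AT1G42500) was an unspliced transcript of 223 nt in ddm1 rdr6, with 22 reads, and a transcript of 6 exons and 1747 nt in ddm1 polV, with 12. Its transcripts ended within 21 nt of each other and began 2797 nt apart. Replicate A resembled ddm1 rdr6, with 24 reads and none of the introns, and in replicate B all 35 reads held all 5.

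Transcript ends were the same at nearly all shared loci. The 5′ ends of the most-read models fell on the same base at 55 of the 74 loci and within 25 nt at 71. The 3′ ends fell on the same base at 22 and within 25 nt at 69, with a median distance of 2 nt. Replicates A and B had 5′ ends within 25 nt at 58 of 80 shared loci and 3′ ends at 71. Ends over 100 nt apart were rare, with 2 loci at the 5′ end, AT1TE52590 and a locus of AT1TE54480, and 1 at the 3′ end. At the minus-strand AT1TE54480 locus (chr1:16510699-16512743), the ddm1 rdr6 transcript was 2045 nt long with 62 reads and that of ddm1 polV 782 nt with 27, its start lying 1261 nt downstream. AT1TE45395 (chr1:13842033-13843203, plus strand) ended 255 nt further downstream in ddm1 polV, with 13 reads in ddm1 rdr6 and 11 in ddm1 polV.

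More than 1 model was listed at 11 shared loci in ddm1 rdr6 and 13 in ddm1 polV (16 in either). AT4TE16900 had 1 start and several ends. Its transcript of 517 nt in ddm1 rdr6 held 322 of 413 reads (78.0%, exact 95% interval 73.7 to 81.9), and that of 520 nt in ddm1 polV held 284 of 379 (74.9%, 70.3 to 79.2). A form of 652 nt held 18.6% and 17.2%, and a form of about 2 kb 3.39% and 4.22%. A form of 759 nt, with 14 reads, was listed in ddm1 polV and not in ddm1 rdr6, and replicate B had one of 764 nt with 11 reads. AT4TE15420 had forms of 577 and 2012 nt in ddm1 rdr6 with 11 and 12 reads, and of 575 and 2004 nt in ddm1 polV with 22 and 25. In contrast, AT2TE20940 and AT5TE44730, of the same sequence group as AT4TE15420 and picked after their values were seen, had the short form in both libraries and a form of about 2 kb in ddm1 polV and replicate B only. The short form had 20 reads in ddm1 rdr6 and 30 in ddm1 polV at AT2TE20940, and 10 and 15 at AT5TE44730. The long form had 10 and 13 reads in ddm1 polV, so its lack in ddm1 rdr6 lay within what the read minimum can hide.

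**Figure D5:**
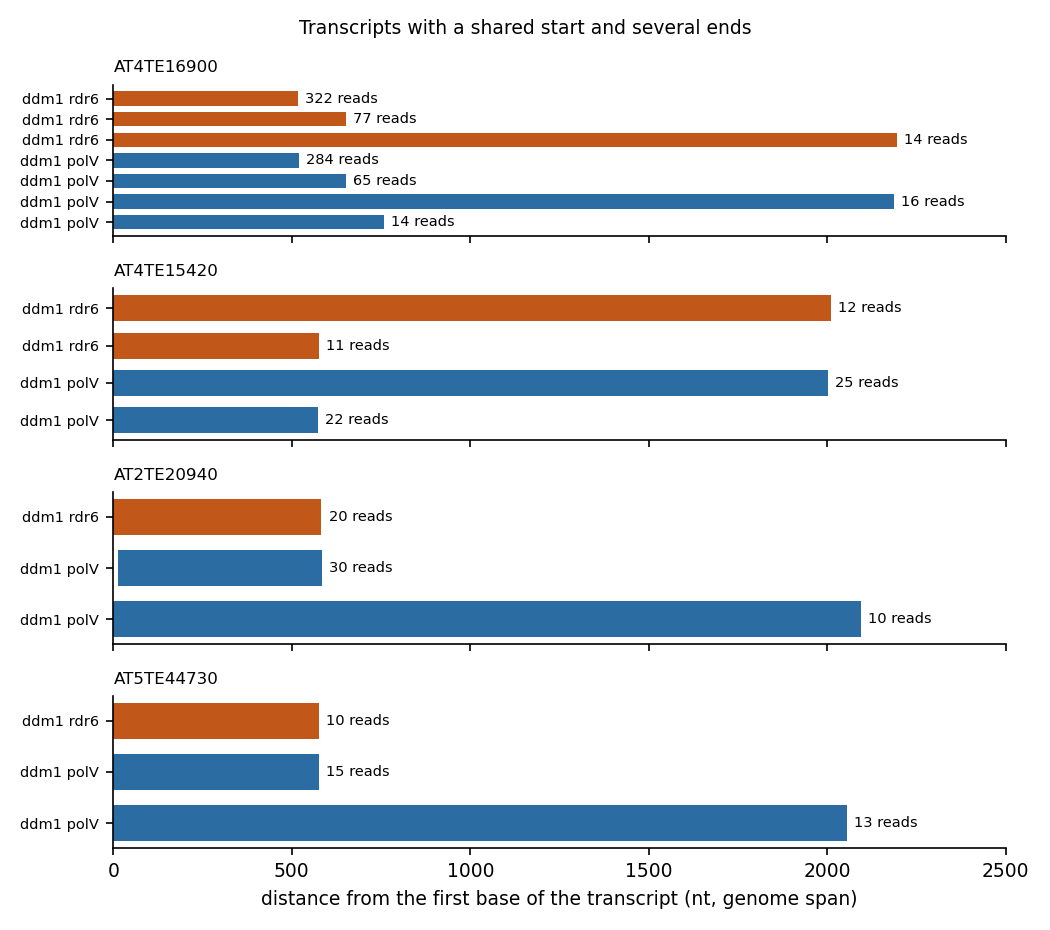
Transcript models of 4 loci in ddm1 rdr6 (orange) and ddm1 polV (blue), drawn by genome span as distance in nt from the first base of the transcript, with their cluster reads. The short forms of 572 to 584 nt and the long forms of about 2 kb recur across the loci of the AT1TE46665 group (lower 3), and the long form of AT2TE20940 and AT5TE44730 is listed in ddm1 polV only (10 and 13 reads).

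Some 3′ ends lay at runs of A in the genome. In the last 40 nt of the most-read model and the next 20 nt, a run of 8 or more A occurred at 15 of 74 shared loci (20.3%), 3 of 18 of ddm1 rdr6 only and 4 of 53 of ddm1 polV only (7.55%). The same window around the 5′ ends held such a run at 0 loci of any category. The ends of the AT4TE16900 transcripts, both of 517 and of 652 nt, lay at such runs, of 27 and 11 A. The part of these runs in the position of the ends was not tested.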

How the data were processed

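The members, lists and tests were chosen with earlier results of these data known. Per the file headers and source column, the authors deposited for each library transcript models made with pinfish, which clusters long reads into consensus transcripts, and a list pairing each model with TE identifiers. The submitters' processing notes name minimap2 and TAIR10, with versions, settings and the pairing rule not given in the sources used here. The number after the bar in each model name, at least 10, was read as the reads of its cluster. It is a count only by that reading and was not normalized, and library totals were not used here. Reference sequence and annotation were TAIR10.1. Of 195 distinct introns, 191 (97.9%) were GT-AG, and 0 models passed a chromosome end.

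Locus names are the first TE identifier. Log2 ratios are of summed reads per locus. Named loci were the 8 with most reads per library among loci of 1 library, the 6 highest and 6 lowest ratios, the 5 with most reads, and those whose introns or ends (over 100 nt) differed. Intervals are 95% (Clopper-Pearson or conditional binomial) and cover counting error only, since PCR reads have no molecular identifiers. Pericentromeric bins were those of 500 kb with under 40% of bases in protein-coding genes, introns included. They were 51 of 240 bins and 21.4% of the genome. Copies, groups and protein matches came from BLAST+ 2.17.0. Copies were sought with the longest exon of the most-read model, at 95% identity over 90% of its length. Groups took 80% identity over 80% and at least 80 nt, and protein matches an e-value of 1e-05. The software was scipy 1.17.1, networkx 3.6.1, biopython 1.88, pandas 2.3.3, matplotlib 3.10.9 and numpy 2.4.6 under Python 3.11.15. The 2-fold call was run on simulated reads with counting error only and no read minimum. That setting differs from these data, so it does not show how accurate the calls are here. Alternatives covered the read minimum, overlap rule, scaling and end and intron tolerances.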

Additional observations from a re-analysis of the deposited data

How the results depend on the processing

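Leaving out a replicate was not possible with 1 library a side. No paired analysis was possible because each of ddm1 rdr6 and ddm1 polV had 1 library, and their shared replicate number was given here and not by the labels. Of 74 recomputed values, 58 kept their direction and call, and their size within 1.5 times for counts or the 95% interval for shares. Some of these, such as the median log2 ratio under another centring or limit, could not change by construction. With models of 20 or more reads, the ratio of models was 1.31 (p = 0.188, exact test), the difference in multi-exon share turned to 7.27 points (p = 0.454, Fisher's exact test), 32 loci were shared and 25 were in ddm1 polV only. Of the 32, 2 were higher and 3 lower past 2-fold, 36 introns were in both, 1 in ddm1 rdr6 only and 3 in ddm1 polV only, and 5′ and 3′ ends were within 25 nt at 31 and 29 loci. Fewer models enter this setting by its construction. Without centring, 11 loci were higher and 8 lower, with the most-read model 3, and at a 4-fold limit 2 were higher and 4 lower, for which the cause was not tested beyond the limit itself. With bins of under 30% of bases in protein-coding genes, 67.6% of shared loci were pericentromeric, since fewer bins qualify. Locus sharing was the same with an overlap of 50%, on either strand and with loci built from all 6 libraries. Reads near the minimum of 10 limit what can be seen of loci and forms missing from 1 library.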

Other observations

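A few introns stood outside the usual pattern. The 195 distinct introns of both libraries had a median length of 106 nt, with quartiles at 81 and 389.5 nt, and 2 exceeded 10000 nt, both in ddm1 polV. They lay at the plus-strand locus of AT4TE15820, with 180420 nt between CT and AG ends and 12 reads, and at AT4TE19910, with 15698 nt and 10 reads. AT2TE20205 in ddm1 polV had an intron of 4635 nt with GC and AG ends and 10 reads. Of the genes of TE silencing and genes controlled by TEs that were listed, 1 of 33 had an overlapping model. It was QQS, an Arabidopsis gene of starch metabolism without known relatives elsewhere, whose locus AT3TE51150 had 39 reads in ddm1, 15 in ddm1 rdr6 and 21 in ddm1 polV.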
